A study of Mus musculus with 8 samples.

Results

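The genes described here are 10 surface antigens of blood progenitor and stem cells, Prom1, Cd34, Cd93, Procr, Adgrg1, Esam, Robo4, Emcn, Cd27 and Cd44. Every probe set whose only gene symbol in the platform annotation was one of these names was taken, which gave 18 of 45037 probe sets other than controls, and 10 of 18193 genes. The arrays held RNA from flow-sorted mouse bone marrow cells, 4 arrays of L-GMPs and 4 of GMPs. L-GMPs came from leukaemic mice and carry the genotype label HoxA9+Meis1 AML, an acute myeloid leukaemia. GMPs, granulocyte-macrophage progenitors, came from normal mice and carry the genotype label Normal. The labels used here give no strain, age, number of mice, vector or antigens of the sort. Whether the arrays of a group hold RNA of separate mice is not stated either, so the p-values measure array-to-array spread that may be technical.

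Surface antigens of this kind are used to sort the steps of blood formation, because stem cells lose some of them and keep others as they become committed to the granulocyte and macrophage lineages. The usual mouse GMP gate takes cells that carry KIT and CD34 and have a high level of the Fc gamma receptors. Several of the antigens are shared with the vessel wall, since blood stem cells and endothelial cells arise from related embryonic cells. Others, such as CD44 and CD93, stay on many mature myeloid cells.

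Of the 18 probe sets, 5 were lower and 1 was higher in L-GMPs, and 12 did not pass the test (limma, Benjamini-Hochberg adjusted p under 0.05 over all 45037 probe sets). Over all probe sets 10.9% passed, with 7.03% lower and 3.89% higher in L-GMPs. The lower probe sets were those of Prom1, Adgrg1 (both of its probe sets), Procr and Emcn, and the higher was 1 of the 5 probe sets of Cd93. Cd34, Cd44, Esam, Robo4 and Cd27 had no probe set past the threshold, though the value of Cd27 lay next to it. Arrays of the groups did not overlap in 9 of the 18 probe sets, 6 lower and 3 higher in L-GMPs. Over all probe sets this held for 17.1%, 9.76% lower and 7.38% higher. Falls of at least 4-fold past the threshold numbered 3 of the 18 probe sets, against 0.810% of all probe sets. They were the probe set of Prom1 and both probe sets of Adgrg1. The median change was -0.14 over the 18 probe sets and 0.00 over all probe sets. It was 0.0573 without L-GMP replicate B, and -0.50 with 1 probe set for each of the 10 genes, against 0.01 over all genes taken that way. Values are log2 of the deposited RMA intensity, changes are L-GMP minus GMP on that scale, and SE is the standard error of the moderated fit.

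**Figure D1:**
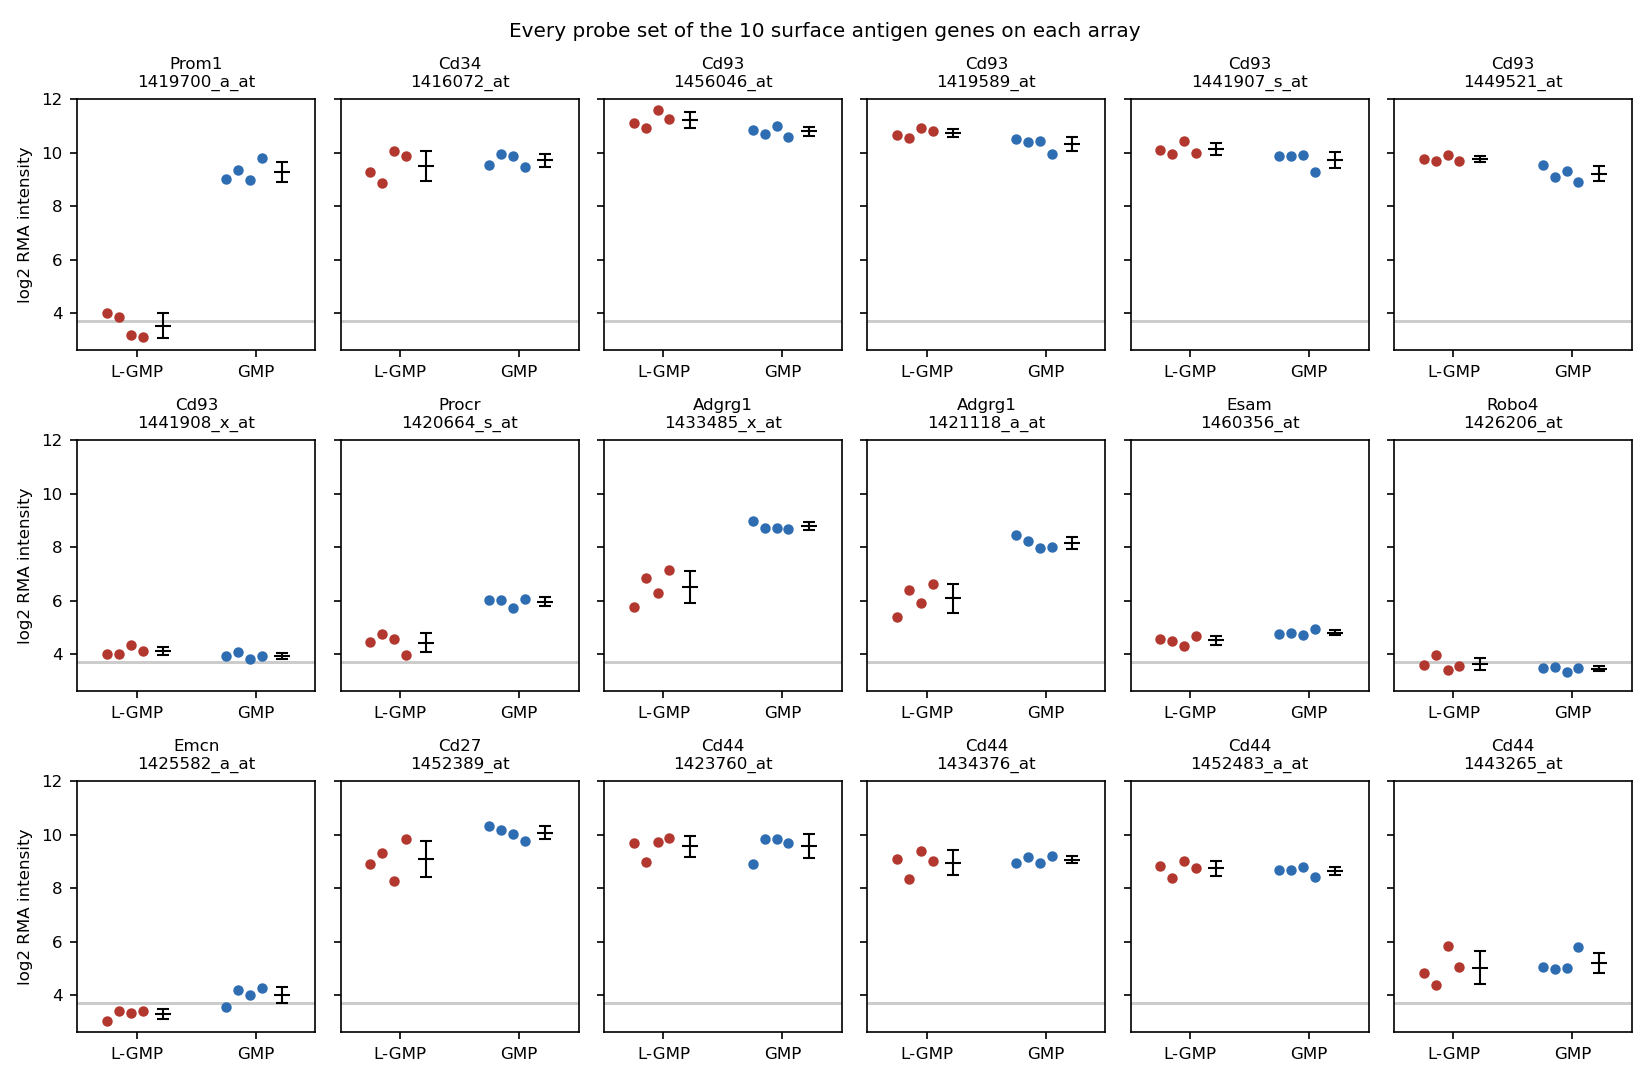
Log2 RMA intensity of each of the 18 probe sets (vertical axis, shared by all panels) on the 4 L-GMP arrays (red, replicates A to D from left to right) and the 4 GMP arrays (blue). Black marks are the group mean with its SD (n = 4), and the grey band is the range of the arrays' lower quartiles, 3.65 to 3.75. The L-GMP points lie wholly below the GMP points for Prom1, Procr, Adgrg1, Esam and Emcn.

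The median log2 intensity of an array was 5.24 to 5.30 in L-GMPs and 5.33 to 5.49 in GMPs, so the groups did not overlap in it. After centring each array on its median, the median change of all probe sets was 0.14, and 65.9% of the calls were higher in L-GMPs, against 35.6% without centring. The lower quartile was 3.65 to 3.75 over the 8 arrays. No detection call was used, so a mean below the lower quartile of every array is treated as near the floor, where the size of a change is uncertain. Arrays of the same group correlated at 0.983 to 0.994 over all probe sets, and arrays of different groups at 0.967 to 0.974. In GMP replicate D the 3' control probe set of Gapdh exceeded the 5' one by 2.74, against 1.24 to 1.76 on the other 7 arrays of both groups, which is a sign of RNA quality. Of 15 neutrophil and granule genes, which mark this lineage, 6 were lower and 1 higher in L-GMPs, where 6.87% of all genes were lower and 4.33% higher with 1 probe set a gene. Mpo (myeloperoxidase) read 13.2 in L-GMPs and 13.6 in GMPs and was among the 6, as were Elane (neutrophil elastase), at 11.05 in L-GMPs and 12.8 in GMPs, Prtn3 (proteinase 3), at 10.9 in L-GMPs and 11.8 in GMPs, and S100a8, at 5.58 in L-GMPs and 9.39 in GMPs. The genes of the leukaemia's label did not move together, since the brighter Hoxa9 probe set had a change of 4.82, the dimmer one of -6.66, and the 3 Meis1 probe sets of -3.05 to -1.47. Which parts of their transcripts these probe sets read is not given, so they do not fully check the labels.

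Prom1, Procr and Adgrg1 were called lower in every probe set under every alternative in which it was tested, and no other member was. Within L-GMPs they did not run alike, since replicate D was lowest in Prom1 and Procr and highest in Adgrg1. Their promoters are printed here because of those calls. They are the 250 bases before each annotated start, 5' to 3' on the gene's strand, from the RefSeq promoter table (GRCm38.p6), which held 10 entries for 8 of the 10 members. Capitals mark a match to any of 4 motifs searched on both strands, GATAA (GATA factors), GGAAGT (ETS factors), TGACAG (MEIS factors) and TGATTTAT (a PBX and HOX composite).
Prom1 upstream start, chr5:44101737-44101986, minus strand: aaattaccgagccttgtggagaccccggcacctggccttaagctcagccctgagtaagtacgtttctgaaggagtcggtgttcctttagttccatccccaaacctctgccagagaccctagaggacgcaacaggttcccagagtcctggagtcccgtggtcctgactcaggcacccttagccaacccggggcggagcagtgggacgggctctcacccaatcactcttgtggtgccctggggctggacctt
Prom1 downstream start, chr5:44094769-44095018, minus strand: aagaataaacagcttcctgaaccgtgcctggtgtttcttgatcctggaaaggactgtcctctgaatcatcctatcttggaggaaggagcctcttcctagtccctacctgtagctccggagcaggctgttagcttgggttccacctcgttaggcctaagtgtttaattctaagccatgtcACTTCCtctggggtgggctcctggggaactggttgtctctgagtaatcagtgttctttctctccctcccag
Procr, chr2:155750967-155751216, plus strand: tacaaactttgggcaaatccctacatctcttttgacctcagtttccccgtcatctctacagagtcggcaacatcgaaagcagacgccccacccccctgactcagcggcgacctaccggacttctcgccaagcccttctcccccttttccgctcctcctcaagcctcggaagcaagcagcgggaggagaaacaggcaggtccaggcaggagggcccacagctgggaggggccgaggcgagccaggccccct
Adgrg1 upstream start, chr8:94976859-94977108, plus strand: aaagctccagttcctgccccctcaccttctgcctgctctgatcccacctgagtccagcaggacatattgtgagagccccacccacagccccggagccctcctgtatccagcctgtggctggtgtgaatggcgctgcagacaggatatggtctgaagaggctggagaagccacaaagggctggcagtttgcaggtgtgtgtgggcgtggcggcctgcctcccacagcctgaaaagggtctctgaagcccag
Adgrg1 downstream start, chr8:94984149-94984398, plus strand: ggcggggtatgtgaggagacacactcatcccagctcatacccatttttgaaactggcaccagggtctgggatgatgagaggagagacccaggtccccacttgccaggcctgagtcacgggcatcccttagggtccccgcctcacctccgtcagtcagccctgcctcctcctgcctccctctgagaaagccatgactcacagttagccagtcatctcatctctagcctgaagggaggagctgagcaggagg
The match in capitals at the downstream start of Prom1 is the ETS motif on the opposite strand, 71 to 66 bases before the start. The other matches among the 10 entries came to 1, a GATAA in the Cd44 window, 232 to 228 bases before its start. Of all 32851 windows of this length in the table, 22.6% held GATAA, 19.7% GGAAGT, 15.9% TGACAG and 0.837% TGATTTAT. The MEIS motif and the PBX and HOX composite were found in 0 of the 10 entries, which says only that these letters are not in these windows.

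Prom1 was the most changed member. It encodes CD133 (prominin 1), a glycoprotein with 5 membrane spans that sits in membrane protrusions and marks stem and progenitor cells in human blood. Its single probe set, 1419700_a_at, read 3.997, 3.85, 3.19 and 3.10 on L-GMP arrays A to D, against 9.02, 9.34, 8.97 and 9.79 on GMP arrays A to D. All L-GMP arrays lay far below all GMP arrays, with a gap wider than the range within either group. The means were 3.54 ± 0.46 in L-GMPs and 9.28 ± 0.38 in GMPs (SD, n = 4 each), so Prom1 fell by 5.75 (SE 0.24, 95% confidence interval -6.28 to -5.21, limma adjusted p = 2.11e-07). This is 53.7-fold lower, and the 6th largest fall among the 45037 probe sets. The L-GMP mean lies below the lower quartile of every array, and how far it fell is therefore uncertain. By rank within its array, the probe set stood at percentile 14.45 to 30.4 of all probe sets in L-GMPs and at percentile 88.6 to 93.5 in GMPs. Lower RNA in a bulk sample can come from fewer cells of a type or from less RNA per cell, and these cannot be told apart here. The fall was -5.90 to -5.58 over 18 alternatives.

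Among 16330 other genes, those closest to Prom1 over the 8 arrays were Gja1 and Smo. Gja1 encodes the gap junction protein connexin 43, and Smo is the Hedgehog signal transducer. After each gene was set to its own mean, the root mean square difference from Prom1 was 0.39 for Gja1 and 0.44 for Smo. Gja1 read 2.46 in L-GMPs and 8.69 in GMPs, and Smo 2.57 in L-GMPs and 8.71 in GMPs. Both L-GMP means lie below the lower quartile of every array, so how far these genes fell is uncertain too. The measure includes the difference between the groups, so a small value need not mean a like course within a group. Prom2, the relative of Prom1 and a member of the relatives' list, was not past the threshold.

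Adgrg1 encodes GPR56, an adhesion G protein-coupled receptor that binds collagen III, is found on mouse blood stem cells and has been used to mark leukaemia-initiating cells in human AML. Its brighter probe set, 1433485_x_at, read 5.75, 6.85, 6.29 and 7.13 on L-GMP arrays A to D, against 8.99, 8.73, 8.73 and 8.69 on GMP arrays A to D. The dimmer, 1421118_a_at, read 5.41, 6.41, 5.92 and 6.63 in L-GMPs, against 8.44, 8.22, 7.95 and 8.01 in GMPs. Both probe sets put every L-GMP array below every GMP array, and both ordered the L-GMP arrays the same way, with replicate A lowest and replicate D highest. The brighter fell by 2.28 (SE 0.25, 4.84-fold lower, limma adjusted p = 0.000279) and the dimmer fell by 2.06 (SE 0.24, 4.18-fold lower, limma adjusted p = 0.000371). The suffix x in a probe set's name marks probes that may also bind other transcripts, and the dimmer probe set, without that mark, gave the same direction. Members with several probe sets were Adgrg1 (2 of 2 past the threshold), Cd93 (1 of 5) and Cd44 (0 of 4), with 0 called in both directions. Among 9010 genes with several probe sets, at least 1 passed in 23.6%, all passed in 3.74% and calls in both directions occurred in 0.222%. The L-GMP arrays spread more than the GMP arrays in Adgrg1, with an SD of 0.61 against 0.14 in the brighter probe set. Without L-GMP replicate A the change of that probe set was -2.02, and over all alternatives it was -2.48 to -2.02.

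The genes nearest to Adgrg1 in pattern over the 8 arrays were Ypel2, at a root mean square difference of 0.26, and Prkca, a protein kinase C, at 0.31. Ypel2 read 7.39 in L-GMPs and 9.47 in GMPs, and Prkca 4.72 in L-GMPs and 6.53 in GMPs.

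Procr encodes EPCR (CD201), the endothelial receptor for protein C, and is among the most selective antigens of mouse blood stem cells. Its probe set, 1420664_s_at, read 4.45, 4.74, 4.58 and 3.96 on L-GMP arrays A to D, against 6.03, 6.04, 5.73 and 6.07 on GMP arrays A to D. Even the highest L-GMP array lay about 1 unit below the lowest GMP array. Procr fell by 1.53 (SE 0.17, 2.89-fold lower, limma adjusted p = 0.000238), with changes of -1.64 to -1.37 over 17 alternatives. Its signal was modest in both groups, at percentile 29.5 to 42.0 of all probe sets in L-GMPs and 54.5 to 59.4 in GMPs. The nearest patterns were those of Phlpp1, a phosphatase of AKT, at a root mean square difference of 0.10, and Cxcr2, the neutrophil chemokine receptor, at 0.16.

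Among 46 measured ligands, partners and modifiers of the members, 4 were lower and 1 higher, where 6.87% of all genes were lower and 4.33% higher. Those of the protein C pathway included called and uncalled genes. F2r, the thrombin receptor PAR1 through which EPCR-bound activated protein C signals, read 2.41 ± 0.16 in L-GMPs and 6.75 ± 0.91 in GMPs (SD, n = 4 each). It fell by 4.33 (SE 0.36, limma adjusted p = 3.25e-05), with an L-GMP mean near the floor. F2rl2, the related receptor PAR3, fell by 0.78 (SE 0.19, limma adjusted p = 0.0236). Proc (protein C), Pros1 (its cofactor protein S) and F2 (prothrombin) did not pass, with changes of 0.30, -0.17 and 0.41.

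Emcn encodes endomucin, a sialomucin of vessel walls that also marks early mouse blood stem cells. Its probe set, 1425582_a_at, read 3.03, 3.40, 3.34 and 3.40 on L-GMP arrays A to D, against 3.56, 4.19, 4.01 and 4.25 on GMP arrays A to D. The groups did not overlap, but the gap was narrow, and GMP replicate A lay closer to the L-GMP arrays than to the other GMP arrays. Emcn fell by 0.71 (SE 0.16, 1.64-fold lower, limma adjusted p = 0.0190). The L-GMP mean of 3.29 lies below the lower quartile of every array and the GMP mean of 4.004 just above it, so the size is uncertain. The call was lost without L-GMP replicate A (adjusted p = 0.0553), GMP replicate B (0.0648), GMP replicate C (0.0524) or GMP replicate D (0.0603), and when both L-GMP B and GMP D were left out (0.0708).

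Cd34, a sialomucin and the best known progenitor antigen, was not past the threshold. Its probe set, 1416072_at, read 9.26, 8.86, 10.07 and 9.87 on L-GMP arrays A to D, against 9.54, 9.96, 9.89 and 9.45 on GMP arrays A to D. The L-GMP arrays reached both below and above the GMP arrays. The change was -0.20 (SE 0.25, 95% confidence interval -0.74 to 0.35, limma adjusted p = 0.677), so a fall of up to 0.74 or a rise of up to 0.35 lies within the interval. It was 0.02 without L-GMP replicate B, the lowest array. If the sort used CD34, its level is tied to the gate, and the sources used here do not say whether it did.

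Esam and Robo4 lie near each other on the same chromosome and are both antigens of endothelium and of mouse blood stem cells. Esam, an adhesion molecule of the immunoglobulin superfamily, read 4.58, 4.48, 4.299 and 4.69 in its probe set 1460356_at on L-GMP arrays A to D, against 4.76, 4.80, 4.71 and 4.94 on GMP arrays A to D. The groups just failed to overlap, with 4.69 in L-GMP replicate D and 4.71 in GMP replicate C. The change of Esam was -0.29 (SE 0.11, 95% confidence interval -0.54 to -0.04, unadjusted p = 0.0291, limma adjusted p = 0.142), and it passed under none of 17 alternatives (adjusted p 0.0931 to 0.392). Robo4, a receptor of the roundabout family that holds vessels stable, read 3.61, 3.96, 3.42 and 3.55 in its probe set 1426206_at in L-GMPs, against 3.46, 3.53, 3.32 and 3.48 in GMPs. Both Robo4 means lie below the lower quartile of every array, and the groups overlapped. Its change was 0.19 (SE 0.13, 95% confidence interval -0.09 to 0.47, limma adjusted p = 0.398).

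The genes measured beside them on the chromosome are Hepacam and Robo3 for Robo4, and Msantd2 and Vsig2 for Esam. Robo3 and Msantd2 lie between Robo4 and Esam. Robo3, the neural relative of Robo4, had a change of 0.25 (limma adjusted p = 0.408). Vsig2 had a change of -0.16, Msantd2 of -0.06 and Hepacam of -0.02, so 0 of the 6 genes passed the threshold in limma's test, and of the 6 Esam alone had an unadjusted p under 0.05.

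Cd27 is a member of the TNF receptor superfamily that lymphocytes and early blood progenitors carry, and its ligand is CD70. Its probe set, 1452389_at, read 8.90, 9.33, 8.26 and 9.84 on L-GMP arrays A to D, against 10.32, 10.18, 10.01 and 9.76 on GMP arrays A to D. The L-GMP arrays were widely spread (SD 0.67, against 0.24 in GMPs), and replicate D was the only one inside the GMP range. The change was -0.98 (SE 0.28, 95% confidence interval -1.61 to -0.36, limma adjusted p = 0.0509), next to the threshold. The test was passed under 7 of 18 alternatives. They were quantile normalization (adjusted p = 0.0379), array weights (0.0265), both filters on dim probe sets (0.0448 and 0.0418), both ways of testing once per gene (0.0465 and 0.0443) and the fit without L-GMP replicate D, where the change was -1.24 (0.0114). Over all alternatives the adjusted p was 0.0114 to 0.127. Cd70, the ligand, and Siva1, Traf2 and Traf5, which bind the receptor's tail, were in the list of partners, where none of these 4 passed.

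Cd93, a C-type lectin-like glycoprotein of early B lineage cells, endothelium, monocytes and fetal blood stem cells, had a change above 0 in 5 of 5 probe sets and passed the test in 1. The probe set that passed, 1449521_at, read 9.77, 9.68, 9.91 and 9.68 on L-GMP arrays A to D, against 9.55, 9.11, 9.30 and 8.88 on GMP arrays A to D. Every L-GMP array lay above every GMP array. Its change was 0.56 (SE 0.14, 1.47-fold, limma adjusted p = 0.0335). The other bright probe sets had changes of 0.43 in 1456046_at, 0.41 in 1419589_at and 0.39 in 1441907_s_at, with adjusted p of 0.103, 0.0989 and 0.174. Their groups did not overlap in 1419589_at and 1441907_s_at and overlapped in 1456046_at. The dimmest, 1441908_x_at, read 4.12 ± 0.15 in L-GMPs and 3.94 ± 0.11 in GMPs (SD, n = 4 each), with a change of 0.18 (adjusted p = 0.364).

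GMP replicate D was the lowest GMP array in 4 of the 5 Cd93 probe sets, and L-GMP replicate C the highest L-GMP array in 5 of 5. Without GMP replicate D the changes of the 4 bright probe sets were 0.37, 0.28, 0.24 and 0.45, and 1449521_at did not pass (adjusted p = 0.0847). That array is also the one with the largest 3' to 5' difference of the Gapdh controls, 2.74, and the part of this in the Cd93 values was not tested. The call of 1449521_at was also lost without L-GMP replicate A (adjusted p = 0.0764), C (0.0885) or D (0.0512), without GMP replicate B (0.0976) or C (0.0643), with both L-GMP B and GMP D left out (0.0984) and after quantile normalization (0.0506). After centring each array on its median, 3 Cd93 probe sets passed.

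Among 15 measured monocyte and macrophage markers 8 were higher, 1 lower and 6 not past the threshold, where 4.33% of all genes were higher. Their summed signal was 13.86 to 14.31 in L-GMPs and 13.10 to 13.28 in GMPs (log2 of the sum of intensities). The largest rises were those of Cd68 (macrosialin, found in lysosomes), with a change of 2.48, Mpeg1 (a pore-forming protein), with 1.93, Ctss (cathepsin S), with 1.69, and F13a1 (a coagulation factor chain), with 1.57. The marker that fell was Cx3cr1, the fractalkine receptor, at -0.75. Their part in the Cd93 values was not tested.

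**Figure D2:**
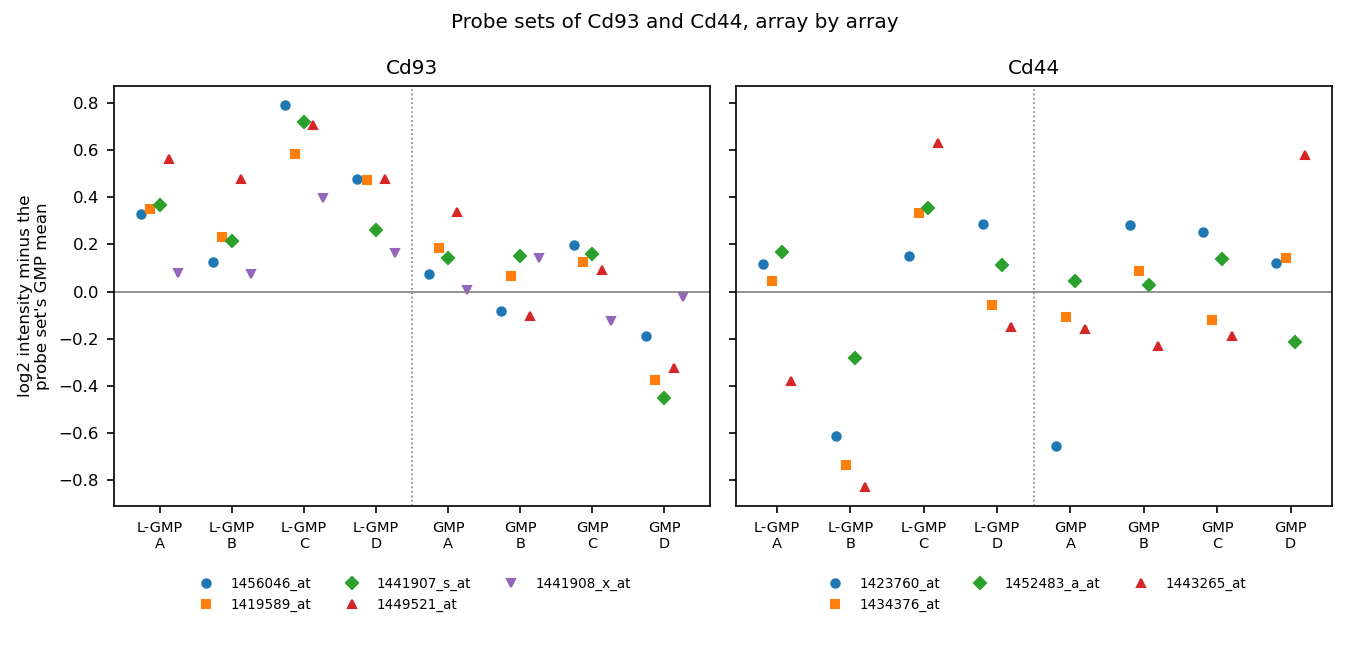
Log2 intensity of each probe set of Cd93 (left) and Cd44 (right) on each array, minus that probe set's own mean over the GMP arrays, with L-GMP arrays left of the dotted line and GMP arrays right of it. Most Cd93 symbols are lowest in GMP replicate D, and all 4 Cd44 symbols are lowest among L-GMPs in replicate B.

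Cd44, the receptor for hyaluronan, which serves homing and adhesion and occurs in several splice forms, was bright in both groups, with 0 of 4 probe sets past the threshold. The brightest probe set, 1423760_at, read 9.69, 8.96, 9.72 and 9.86 on L-GMP arrays A to D, against 8.92, 9.85, 9.82 and 9.69 on GMP arrays A to D. Its change was -0.01 (SE 0.24, 95% confidence interval -0.55 to 0.52, limma adjusted p = 0.979). Each group held a single low array, L-GMP replicate B and GMP replicate A. The other probe sets had changes of -0.10 in 1434376_at (95% confidence interval -0.54 to 0.34), 0.09 in 1452483_a_at (-0.23 to 0.41) and -0.18 in 1443265_at (-0.82 to 0.45), with adjusted p of 0.745 to 0.794. L-GMP replicate B was the lowest L-GMP array in 4 of 4 probe sets. Without it the changes were 0.18, 0.11, 0.21 and 0.03, with adjusted p of 0.348 to 0.958. The signs of the 2 brightest probe sets also turned after centring on the median, to 0.13 and 0.04, and 0 of the 4 probe sets passed in limma's test under any alternative, with 0 at an unadjusted p under 0.05 over all arrays.

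**Figure D3:**
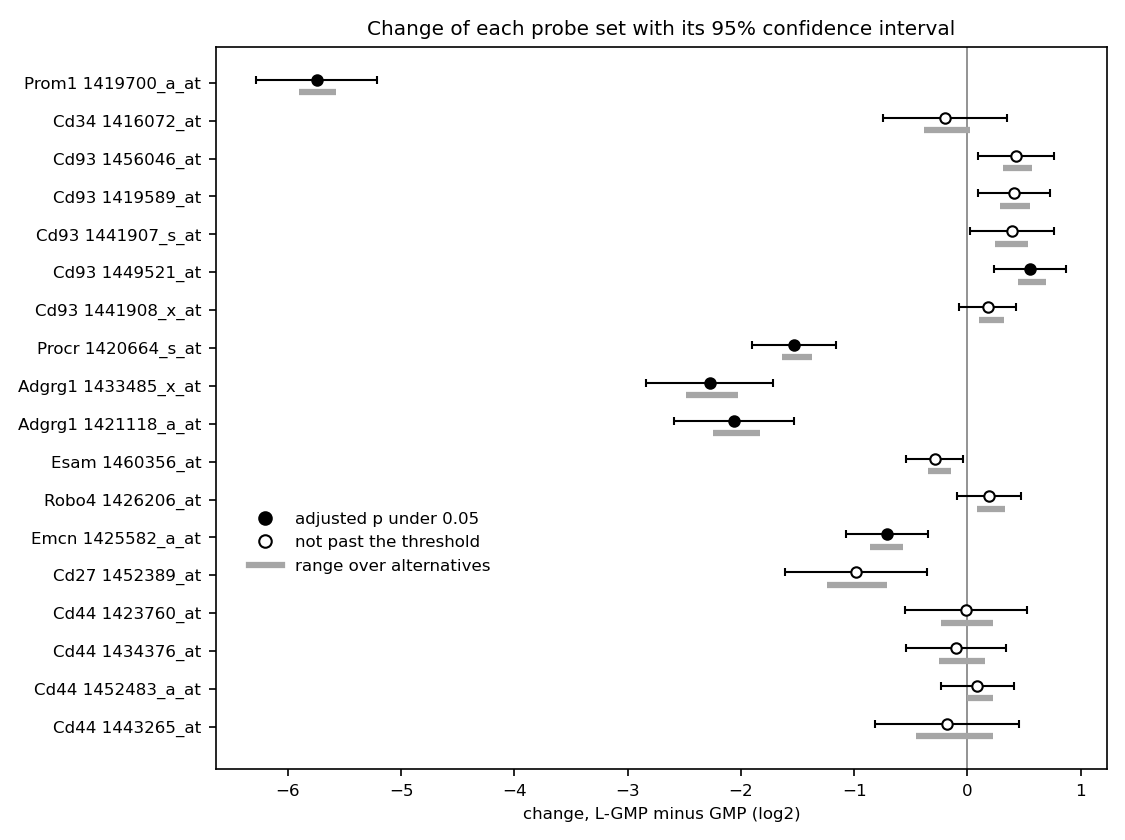
Change of each probe set (horizontal axis, log2, L-GMP minus GMP) with its 95% confidence interval from the limma fit, filled where the adjusted p is under 0.05. Grey bars are the range over the alternatives in which that probe set was tested. Prom1 at -5.75 and the Adgrg1 pair at -2.28 and -2.06 stand left of the rest, while the 4 Cd44 intervals span 0.

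Within groups, the members were more uneven among L-GMPs than among GMPs. The SD was larger in L-GMPs in 13 of the 18 probe sets (72.2%), against 51.1% of all probe sets, and the median SD of the 18 was 0.31 in L-GMPs and 0.23 in GMPs. L-GMP replicate B was the lowest of its group in 9 of the 18 probe sets, among them the probe sets of Cd34 and Cd44, and L-GMP replicate C was the highest in 9. No test was made of these counts, since probe sets of a gene share their RNA and transcript.

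Other surface antigens of stem and progenitor cells included genes that changed in each direction. Of 35 measured, 10 were lower and 3 higher in L-GMPs, with a median change of -0.06, where 6.87% of all genes were lower and 4.33% higher with 1 probe set a gene. Flt3, a cytokine receptor with kinase activity found on multipotent progenitors, rose by 3.29 (SE 0.27, limma adjusted p = 3.09e-05). The others that rose were Cd244a, a receptor of the SLAM family, by 1.61, and Cd33, a sialic acid-binding lectin, by 1.14. Alcam, the adhesion molecule CD166, fell by 2.80 (SE 0.29). Tek and Tie1, angiopoietin receptors of stem cells and endothelium, had changes of -2.48 and -2.01, with L-GMP means of 2.96 and 3.79. Kit, the stem cell factor receptor and part of the usual GMP gate, fell by 0.96, to 8.24 in L-GMPs, against 9.19 in GMPs. Among 37 measured stem cell genes that are no surface antigens, 13 were lower and 5 higher. The largest changes there were in Mycn, a MYC family factor, which rose by 8.37, Hoxa9, a homeobox factor, which rose by 4.82 in its brighter probe set, Ifitm1, a small membrane protein induced by interferon, which fell by 3.92, and Hmga2, a chromatin protein, which rose by 3.52. The probe sets of Mycn, Hoxa9 and Hmga2 disagreed, since 1 further Mycn probe set passed with a change of -1.63, the other Hoxa9 probe set with -6.66, and 3 further Hmga2 probe sets with -1.51 to -0.97. The rest of those higher were Egr1 and Lyl1, transcription factors, with changes of 2.21 and 0.56.

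Of 34 measured genes of the same protein families as the members, 4 were higher and 0 lower in L-GMPs and 30 did not pass, where 4.33% of all genes were higher and 6.87% lower. The direction of these 4 calls was not tested. Adgre1, the macrophage antigen F4/80 and an adhesion receptor like Adgrg1, rose by 1.56 (limma adjusted p = 0.0415), and Adgre5, which encodes CD97, rose by 0.74. Clmp, an adhesion molecule related to Esam, rose by 0.92, and Tnfrsf13b, in the receptor superfamily of Cd27, by 0.51. Among the 46 ligands, partners and modifiers, besides F2r and F2rl2, Tjp1, a scaffold of cell junctions, fell by 0.69 to an L-GMP mean of 3.13, Adam17, a protease that sheds surface proteins, fell by 0.49, and Gipc1, an adaptor that binds the tail of CD93, rose by 0.57.

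Some markers of other cell types were also lower in L-GMPs. With 1 probe set a gene, 6.87% of all genes were lower and 4.33% higher. Of 13 measured eosinophil, basophil and mast cell markers, 8 were lower, 0 higher and 5 did not pass. Their summed signal was 9.57 to 10.67 in L-GMPs and 12.17 to 13.45 in GMPs. Granule proteins of eosinophils fell, with changes of -5.20 in Prg2, -4.77 in Epx and -3.93 in Prg3, and Ms4a2, a chain of the IgE receptor, had a change of -4.95. Of 14 megakaryocyte and platelet markers, 5 were lower and 9 did not pass. Their sums overlapped between groups, at 9.66 to 10.43 in L-GMPs and 9.89 to 11.57 in GMPs. The lower ones were Pf4, Rab27b, Vwf, Itga2b and Gp5, with changes of -5.10, -2.24, -1.80, -1.68 and -0.49. In L-GMPs Rab27b and Gp5 had means of 3.37 and 3.55, below the lower quartile of every array, so those sizes are uncertain. Of 11 erythroid markers, 3 were lower and 8 did not pass, with sums of 10.07 to 10.42 in L-GMPs and 10.90 to 11.20 in GMPs. They were Car2, Car1 and Gata1, with changes of -4.32, -1.80 and -1.68. The part of all these markers in the falls of Prom1, Adgrg1, Procr and Emcn was not tested.

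Endothelial markers bear on the antigens shared with vessels. Of 20 measured, 4 were lower, 1 was higher and 15 did not pass, where 6.87% of all genes were lower and 4.33% higher. Their sums were 9.69 to 10.03 in L-GMPs and 9.89 to 10.27 in GMPs. Those lower were Tal1, Tek, Tie1 and Vwf, which blood progenitors or megakaryocytes also express, and the one higher was Pecam1 (CD31), also a gene of myeloid cells, with a change of 0.75. Of the 20, 7 had an L-GMP mean and 5 a GMP mean below the lower quartile of every array, 4 of them in both groups. Cdh5 (VE-cadherin) and Kdr (VEGF receptor 2) were among those 4, at 3.53 and 3.33 in L-GMPs and 3.53 and 3.34 in GMPs. Others were well above it, with Pecam1 at 8.65 in L-GMPs and 7.90 in GMPs, Egfl7 at 7.30 in L-GMPs and 7.51 in GMPs, Flt1 at 6.06 in L-GMPs and 6.20 in GMPs, and Eng at 5.83 in L-GMPs and 6.31 in GMPs. The part of endothelial RNA in the values of Procr, Emcn, Esam, Robo4, Cd34 and Cd93 was not tested.

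With 1 probe set a gene, 6.87% of all genes were lower and 4.33% higher, so a single call in a list below is near those shares. Of 13 B lymphoid markers 1 was lower, Rag2, with a change of -1.43. The B lymphoid sums were 9.23 to 9.88 in L-GMPs and 9.30 to 9.48 in GMPs. Of 17 T and NK lymphoid markers 1 was higher, Cd8b1, with a change of 0.62 and means of 3.68 in L-GMPs and 3.06 in GMPs. The T and NK sums were 9.44 to 9.61 in L-GMPs and 9.37 to 9.50 in GMPs. The 15 neutrophil and granule genes had sums of 14.39 to 14.65 in L-GMPs and 15.03 to 15.17 in GMPs. Cd177, a neutrophil surface protein, rose by 4.28, while S100a8, Elane and Cxcr2 had changes of -3.82, -1.75 and -1.37. Of 11 marrow stromal markers 1 was lower, Vcam1, with a change of -1.66. The stromal sums were 8.76 to 9.07 in L-GMPs and 8.76 to 9.16 in GMPs.

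**Figure D4:**
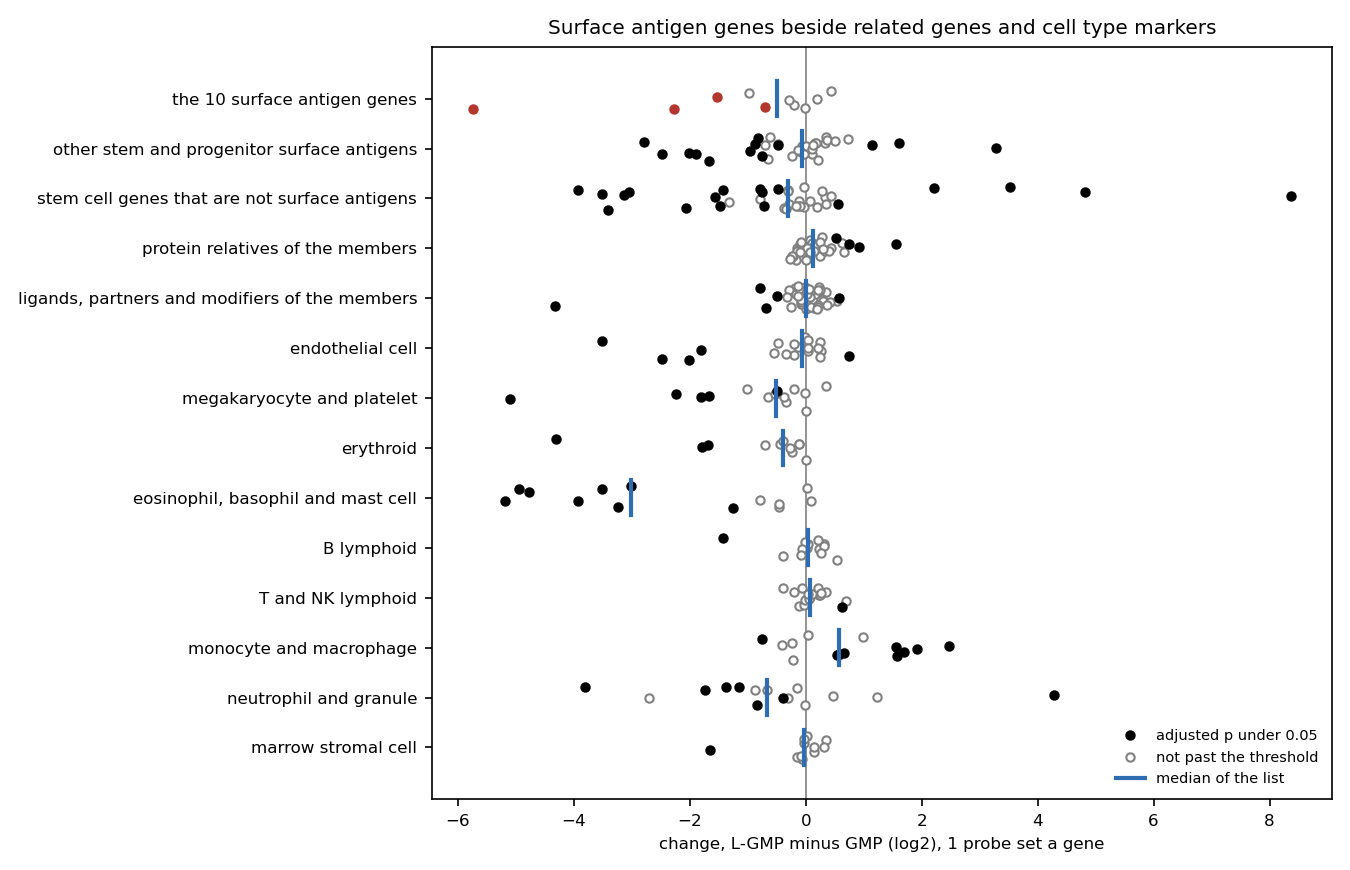
Change of each gene (horizontal axis, log2, L-GMP minus GMP, 1 probe set a gene), by list, filled where the adjusted p is under 0.05, with the median of each list as a blue bar. In the top row 4 of the 10 surface antigen genes are filled, all left of 0. Over all genes taken the same way, 6.87% were lower and 4.33% higher in L-GMPs. The eosinophil, basophil and mast cell row has the lowest median, -3.01.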

How the data were processed

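Groups were taken from the sample titles, with replicates A to D in each. The authors deposited RMA intensities on a linear scale, and RMA is named per the submitters' processing notes, with no version given. The method subtracts background, brings arrays to a common distribution and gives a single value for the probes of each probe set. The deposited intensities ran from 3.54 to 29746.73, and log2 was taken of them here. All columns were used (0 unused). The labelling kit in the labels is one for whole transcripts, while the probe sets are of a 3' array, so which labelling was used is not settled. No genome build is named.

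Of 45101 probe sets, 64 controls were left out. In the platform annotation 34945 of the others had 1 symbol, 932 several and 9160 none. Limma 3.58.1 (R 4.3.3) was run with lmFit and eBayes on group, 2-sided, with Benjamini-Hochberg adjustment over 45037 probe sets at 0.05. Lists were read by each gene's brightest probe set (mean of all 8 arrays), which can favour genes high in a single group. The fit was tested on simulated data first. The members and lists were chosen with earlier results of these data known. Named besides all members were up to 4 called genes per list, those that changed most, and, for members past it with a change of at least 1, the 2 genes nearest in pattern. The neighbours of Esam and Robo4 were named too. Other genes (Mpo, Prtn3, Meis1, Kit, Cd244a, Cd33, Egr1, Lyl1, Adam17, Cx3cr1, Gp5, Pecam1, Prom2, Cd70, Siva1, Traf2, Traf5, Cdh5, Kdr, Egfl7, Flt1, Eng, Proc, Pros1 and F2) were chosen after their values were seen. The alternatives were 2 scalings, 2 filters on dim probe sets, 2 ways of testing once per gene, array weights, a robust prior with a trend, a block for the replicate letter, leaving out each array, and leaving out L-GMP B with GMP D. The number of arrays limits the precision.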

Additional observations from a re-analysis of the deposited data

Results flagged for a closer look

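Within the groups of 4 arrays, 36 sets of values were examined for an array far from the other 3, by Dixon's ratio of the gap to the range at its 95% critical value, and 4 stood out. Chance flags about 1 in 20 such sets. GMP replicate C was low in Procr at 5.73, against 6.03 for the nearest array. GMP replicate A was high in the brighter Adgrg1 probe set at 8.99, against 8.73. GMP replicate D was low in the Cd93 probe set 1441907_s_at at 9.28, against 9.88. GMP replicate D was also high in the dimmest Cd44 probe set at 5.78, against 5.04.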

How the results depend on the processing

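Over 300 pairs of a probe set and an alternative, 277 stayed on their side of the threshold (uncalled values near 0 could change sign, as given for Cd34 and Cd44), 13 lost a call (Emcn and Cd93 1449521_at), 10 gained one (7 of Cd27, 3 of Cd93) and 0 called values reversed. The probe sets lower in L-GMPs numbered 4 to 6 throughout. Those higher, 1 in all, were 3 after median centring, 0 after quantile normalization, 0 with 1 probe set a gene or with probe sets averaged by gene, 0 when L-GMP B and GMP D were both left out, and 0 to 2 with an array left out. The median change of the 18 was -0.50 with 1 probe set a gene and with averages by gene (fewer entries for Cd93 and Cd44), 0.12 without those 2 arrays, and -0.23 to 0.0573 with an array left out, positive without L-GMP replicate B. Of all probe sets, 4921 passed, 35.6% of them higher in L-GMPs, against 65.9% of 6523 after median centring and 46.8% of 5263 after quantile normalization. The number was 2193 and 2569 when tested once per gene, where 18193 genes entered, and 2972 to 5334 with an array left out, lowest without GMP replicate B (without GMP replicate D 3244). The dim filters kept 16 and 12 of the 18 probe sets.

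With the replicate letter as a block (replicate block), 4077 probe sets passed, and 1 member probe set was higher and 5 lower. Deviations of arrays with the same letter correlated at -0.07 to 0.10, and 1 of 4 L-GMP arrays correlated best with the GMP array of its letter, so the letters were not taken as pairs.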
